A study of Mus musculus with 24 samples.

Results

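The genes described are 10 that mark the cells of the brain vessel wall and the barrier they form: Cldn5, Pecam1, Flt1 and Cav1 of endothelial cells, the barrier transporters Mfsd2a, Slco1a4 and Abcb1a, and the pericyte genes Pdgfrb, Rgs5 and Vtn. They were taken by name out of the 55385 genes counted in mouse hippocampus, with earlier results of these data known. Total RNA was sequenced from 24 adult mice in 6 groups of 4, with 1 library per mouse. By the study's methods they were young adults, some months old, and of both sexes. All mice carried floxed Tsc1 alleles (Tsc1f/f) and received tamoxifen. Control mice (Tsc1-Cre-, Tsc1f/f-Tg(Camk2a-CreERT2-)) had no Cre and were taken on day 8 after the first injection. Tsc1-Cre+ mice (Tsc1f/f-Tg(Camk2a-CreERT2+)), in which tamoxifen deletes Tsc1, were taken on day 4, 6, 8 or 13, and a further Tsc1-Cre+ group, Tsc1-Cre+-Rap 4, was given the mTOR inhibitor rapamycin at 10 mg/kg daily from day 4 and taken on day 13. Only 1 time point had a control group, so time after tamoxifen and deletion cannot be told apart on the other days, and no Tsc1-Cre- mouse was given rapamycin. The Camk2a driver directs the deletion to CAMK2A neurons. Vessel cells carried the floxed alleles, but they were not the cells the driver targets.

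The blood-brain barrier is the property of brain capillaries that keeps most blood-borne molecules out of neural tissue. Its endothelial cells are sealed by tight junctions, hold few transport vesicles, and move nutrients in and drugs out through dedicated carriers and pumps. Pericytes wrap the capillary within the same basement membrane and are needed to build and keep the barrier, and the end-feet of astrocytes cover the vessel from the tissue side. Loss of barrier function is a known feature of tissue after seizures.

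Every one of the 10 genes passed the filter on low counts in every comparison, with between 253 and 14503 reads per mouse. CPM are counts scaled to the library total after TMM adjustment. Over the 24 mice, the level per kilobase of exon was 20.4 CPM for Rgs5, 17.1 for Vtn and 13.6 for Cldn5. Slco1a4 stood at 8.26, Mfsd2a at 7.04, Flt1 at 5.68, Pdgfrb at 5.55, Abcb1a at 5.35, Cav1 at 5.29 and Pecam1 at 2.88 on the same scale. Other defining vascular markers were also present: in control mice Cdh5, the adherens junction cadherin of endothelium, was at 9.34 CPM ± 1.64 (SD, n = 4), and Cspg4, a pericyte marker that oligodendrocyte precursors share, at 37.4 ± 1.27. The tissue was whole hippocampus, so fewer vessel cells and less RNA per vessel cell cannot be told apart in any value below.

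Library totals ran from 28208561 to 126435936 reads, with a median of 55582027. Tsc1 was at 103 to 109 CPM in control mice and at 57.4 to 81.7 in the 20 Tsc1-Cre+ mice, so every Tsc1-Cre+ library was below every control library. Markers of the choroid plexus, a vascular structure next to the hippocampus, varied widely: their summed level ran from 40.9 to 1724 CPM over the mice, with low and high mice in each group. Red-cell transcripts summed to 58.9 to 75.7 CPM in control mice and were lower in every mouse of day 4, day 6, day 13 and Tsc1-Cre+-Rap 4, at 31.8 to 52.1. The part of either in the vascular values was not tested beyond the fit with the choroid plexus gene Ttr as a covariate, which changed no call among the 10 genes. Day 13 mice A and B stood apart from mice C and D in several genes below. They shared the stem of the sample number in their file names, while C and D each had another, and what this number marks is not stated.

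The sequences just before the start sites are shown for the 3 genes whose levels the results turn on, Cldn5, Mfsd2a and Cav1. Each run is 250 bases of the RefSeq promoter (GRCm38.p6), written 5′ to 3′ on the strand of the gene and ending at the base before the start site. Capitals mark a match to a motif searched on both strands. The gene models counted lie at chr16:18776847-18778262 (Cldn5), chr6:17306335-17341452 (Cav1) and chr4:122946850-122961188 (Mfsd2a).
Cldn5 (chr16:18776597-18776846, plus strand): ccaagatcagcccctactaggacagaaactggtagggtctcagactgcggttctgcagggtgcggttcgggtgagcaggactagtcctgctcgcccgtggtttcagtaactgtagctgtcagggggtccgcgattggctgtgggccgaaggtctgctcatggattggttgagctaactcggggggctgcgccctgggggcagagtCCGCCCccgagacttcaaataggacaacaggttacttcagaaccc
Cav1 (chr6:17306085-17306334, plus strand): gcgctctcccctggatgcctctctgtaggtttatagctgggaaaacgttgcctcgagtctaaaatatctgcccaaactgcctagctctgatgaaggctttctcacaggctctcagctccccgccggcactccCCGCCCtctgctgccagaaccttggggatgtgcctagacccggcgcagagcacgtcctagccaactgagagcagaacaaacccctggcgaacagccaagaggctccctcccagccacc
Mfsd2a (chr4:122961189-122961438, minus strand): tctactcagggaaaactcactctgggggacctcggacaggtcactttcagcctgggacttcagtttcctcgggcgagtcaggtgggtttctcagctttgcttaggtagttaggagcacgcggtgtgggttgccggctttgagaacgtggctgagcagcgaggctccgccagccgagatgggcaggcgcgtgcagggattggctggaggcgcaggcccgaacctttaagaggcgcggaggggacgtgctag
Promoters were found for 8 of the 10 genes. The 6 motifs searched were the GC box GGGCGG, ETS CCGGAA, AP-1 TGANTCA, forkhead GTAAACA, the E-box CACGTG and an ATF4-C/EBP element TGATGNAA, and no match overlapped another. Cldn5 held 1 GC box, 45 bases before the start, and Cav1 held 1 at 118 bases before the start shown. Another RefSeq promoter of Cav1, at chr6:17307390-17307639, held none of the 6 motifs. Flt1 held 3 GC boxes, at 158, 142 and 19 bases, and Abcb1a held a forkhead match at 20 bases, before a RefSeq start that lies upstream of the gene model that was counted. Mfsd2a, Slco1a4, Rgs5 and Vtn held none of the 6. Of all 32851 RefSeq promoters, 32.7% held the GC box, 12% the ETS motif, 6.75% the AP-1 motif, 3.17% the forkhead motif, 6.02% the E-box and 3.45% the ATF4-C/EBP element.

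Over the 6 groups, 6 of the 10 genes differed in edgeR's quasi-likelihood F test (adjusted p below 0.05), beside 41.9% of all 27110 genes tested. These were Mfsd2a (adjusted p = 9.35e-06), Cldn5 (2.06e-05), Cav1 (3.06e-05), Pdgfrb (2.61e-04), Pecam1 (6.53e-04) and Rgs5 (0.00354). Flt1, Vtn, Abcb1a and Slco1a4 did not pass, with adjusted p of 0.0808, 0.364, 0.259 and 0.722. In pairs of groups, a call needed both an edgeR adjusted p below 0.05 and a log2 fold change beyond 0.5 in either direction. The highest of the 24 values was in a day 13 mouse for 8 of the 10 genes. The lowest was in a day 13 mouse for 4 and in a Tsc1-Cre+-Rap 4 mouse for another 4.

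**Figure D1:**
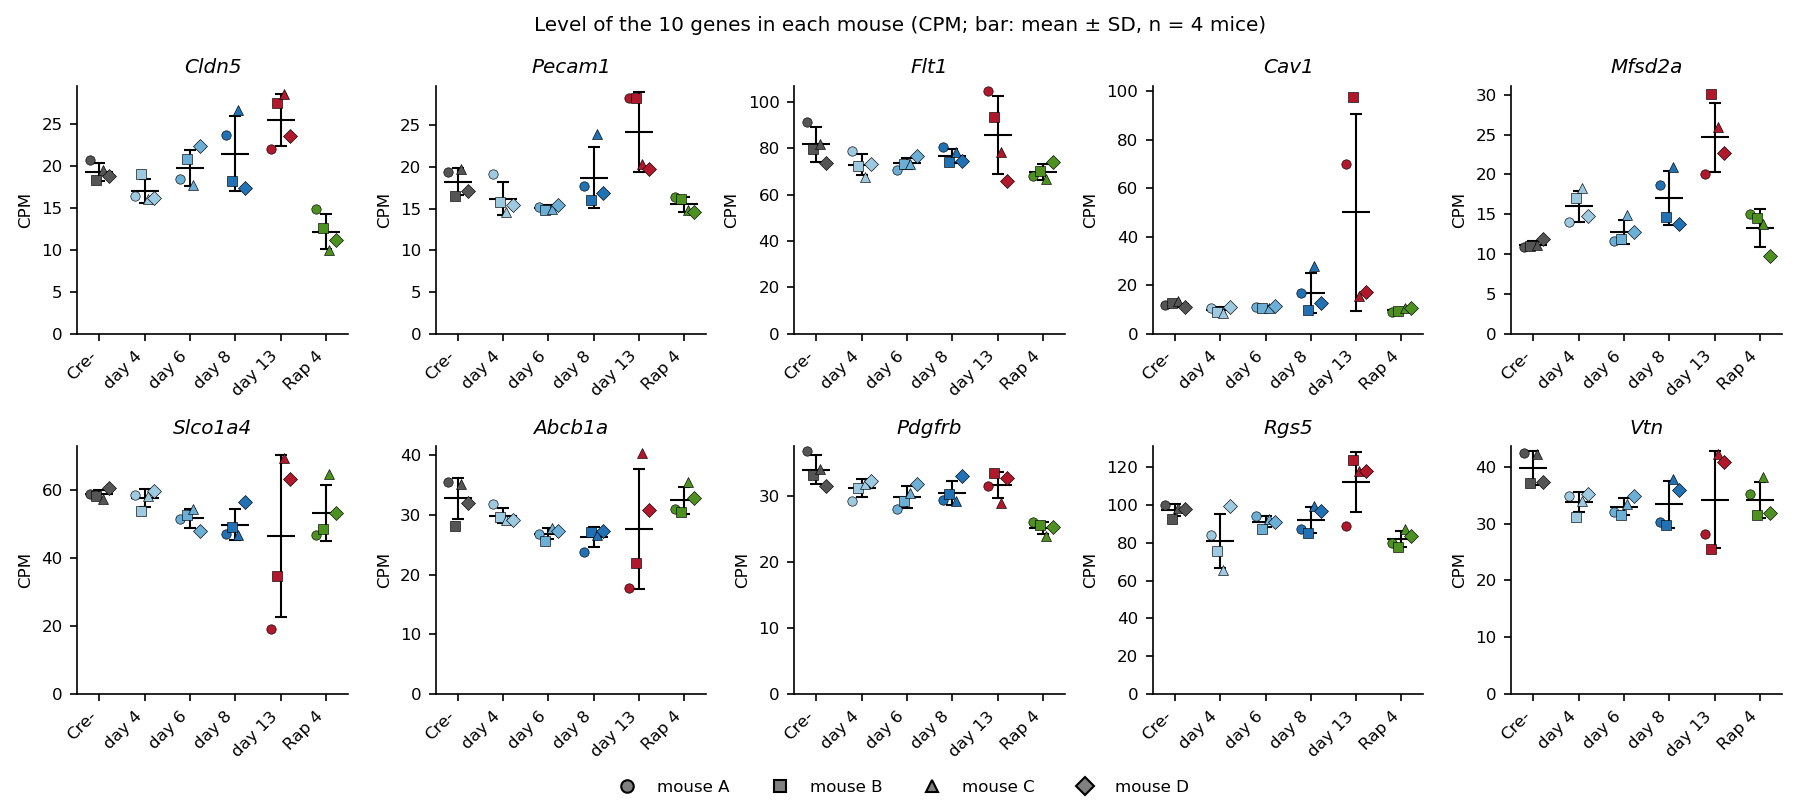
Level of each of the 10 genes in CPM (y axis, linear from 0) in each mouse of the 6 groups (x axis: Cre-, Tsc1-Cre- control; day 4 to day 13, Tsc1-Cre+; Rap 4, Tsc1-Cre+-Rap 4); symbols are mice A to D and black bars the mean ± SD of 4 mice. Mfsd2a is above the control mice on day 13 in all 4 mice (20.1 to 30.1 against 10.9 to 11.9 CPM), while Cav1 is far above them in only mice A and B (69.8 and 97.7 CPM).

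The barrier transporter Mfsd2a rose on day 4, day 8 and day 13. Mfsd2a carries docosahexaenoic acid in lysophospholipid form into the brain and holds down vesicle traffic across brain endothelium. Control mice A, C and D had 10.9, 11.1 and 11.9 CPM, and mouse B lay between A and C. On day 4 the mice had 14.0, 17.0, 18.3 and 14.8 CPM, all above every control mouse, a fold of 1.43 (log2 fold change 0.51, SE 0.0835, edgeR adjusted p = 0.00689). It was the only member called at day 4, 1 of 10 beside 0.680% of all 25308 genes tested. Its fold lay at the minimum that a call asks for. The call was lost without control mouse A (log2 fold changes over the fits that left out 1 mouse were 0.44 to 0.57), without day 4 mouse B and without day 4 mouse C, and in 4 of 10 other settings, 1 of them the fit with Xist, a transcript of female cells, as a covariate (log2 fold change 0.48).

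On day 6 Mfsd2a was at 11.6, 11.9, 14.9 and 12.8 CPM. These overlap the control range, and the log2 fold change was 0.18 (SE 0.0810, edgeR adjusted p = 0.194). On day 8 it was at 18.7, 14.7, 21.0 and 13.8 CPM, again above every control mouse (log2 fold change 0.59, SE 0.122, edgeR adjusted p = 0.0108), and was the only one of the 10 called, beside 3.99% of 25085 genes. Without day 8 mouse C the log2 fold change was at its lowest, 0.47, and under the fold minimum. On day 13 it reached 20.1, 30.1, 26.0 and 22.7 CPM, more than any control mouse, a fold of 2.17 (log2 fold change 1.12, SE 0.121, edgeR adjusted p = 5.85e-04). This call held with any 1 mouse left out (1.02 to 1.21) and in all 11 other settings. From day 8 to day 13 the log2 fold change was 0.52 (SE 0.162) with an edgeR adjusted p of 0.303, and the mice overlapped. Over the groups the mean ran in the order control, day 6, Tsc1-Cre+-Rap 4, day 4, day 8 and day 13, and the mice of each neighbouring pair in this order overlapped.

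In Tsc1-Cre+-Rap 4 mice Mfsd2a was at 15.0, 14.5, 13.8 and 9.77 CPM. Mice A, B and C were above the control range and mouse D below it, and the difference from control was not called (log2 fold change 0.24, SE 0.116, edgeR adjusted p = 0.299). It was lower than on day 13 in every mouse, at 0.541 of the day 13 level (log2 fold change -0.89, SE 0.161, edgeR adjusted p = 0.00352).

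The other transporters went differently. Slco1a4 is an organic anion carrier of brain capillaries that moves thyroid hormone and drugs, and Abcb1a encodes a P-glycoprotein, the efflux pump that returns many drugs to the blood. Slco1a4 was at 58.8, 58.2, 57.5 and 60.7 CPM in control mice and Abcb1a at 35.6, 28.2, 35.2 and 32.0. Slco1a4 differed little between control and day 4 mice, which had 54.0 to 59.9 CPM (log2 fold change -0.03, SE 0.0404).

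On day 6 all 4 mice were below every control mouse for both genes, with 48.1 to 54.6 CPM of Slco1a4 (12.6% lower, SE 0.0416 on the log2 scale, edgeR adjusted p = 0.00939) and 25.6 to 27.8 CPM of Abcb1a (18.4% lower, SE 0.0689, adjusted p = 0.0155). On day 8 this was so again, with 46.7 to 56.5 CPM of Slco1a4 (15.9% lower, adjusted p = 0.0316) and 23.8 to 27.4 CPM of Abcb1a (20.6% lower, adjusted p = 0.0254). These changes were under the fold minimum, so neither gene was called.

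By adjusted p alone, with any fold, 4 of the 10 genes were lower on day 6, the other two being Pecam1, an adhesion molecule of endothelial junctions, and Vtn, a matrix protein that brain pericytes make. All 4 mice were under every control mouse for both: 14.8 to 15.4 CPM of Pecam1 against 16.5 to 19.7 (17.5% lower, edgeR adjusted p = 0.0196), and 31.6 to 34.9 CPM of Vtn against 37.1 to 42.5 (17.7% lower, adjusted p = 0.00757). None of the 10 was higher by that rule, which 10.1% of 25057 genes passed, 1564 higher and 955 lower. With the fold minimum none of the 10 was called on day 6, beside 1.32% of all genes. Among all genes by adjusted p alone, 4.16% passed on day 4 (1 of the 10, Mfsd2a) and 13.3% on day 8 (Mfsd2a higher, Slco1a4 and Abcb1a lower).

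On day 13 Slco1a4 split the mice. Mice A to D had 19.0, 34.8, 69.5 and 63.2 CPM, so that A and B were below and C and D above every control mouse. Abcb1a had 17.7, 21.9, 40.4 and 30.8 CPM, with A and B again below every control mouse, C above and D within the control range. Vtn had 28.2, 25.5, 42.3 and 40.8 CPM, with A and B below every control mouse and C and D within the control range. None was called, with edgeR adjusted p of 0.452 for Slco1a4, 0.412 for Abcb1a and 0.314 for Vtn.

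Cav1, the coat protein of caveolae, vesicles that barrier endothelium keeps few of, was 4.04-fold higher on day 13. It was at 11.8, 12.6, 13.6 and 10.8 CPM in control mice and at 69.8, 97.7, 15.7 and 17.0 CPM on day 13. All 4 mice were above every control mouse, but mice C and D only a little so. The log2 fold change was 2.01 (SE 0.532, edgeR adjusted p = 0.0216). Without mice A and B together, a setting chosen after the data were seen, it was 0.42 with an adjusted p of 0.0219, under the fold minimum.

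The Cav1 call was lost in 6 of the 8 fits that left out 1 mouse, those without any 1 of the control mice, without day 13 mouse A and without day 13 mouse B (log2 fold changes 1.48 to 2.34, adjusted p up to 0.0652). With Xist as a covariate its log2 fold change was 1.10 (edgeR adjusted p = 0.0792). With Mfsd2a, Cav1 made 2 of the 10 called on day 13, beside 16.5% of 24920 genes. By adjusted p alone, 3 were higher (with Cldn5) and none lower, beside 26.9% of genes. On day 8 Cav1 was at 16.6, 9.58, 28.1 and 12.7 CPM. Mice A and C were above the control range (log2 fold change 0.45, SE 0.261, edgeR adjusted p = 0.289).

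Mice A and B also stood apart in astrocyte genes. Among the astrocyte intermediate filament genes, day 13 mice A to D had 91.1, 307, 33.6 and 47.1 CPM of Vim (control 20.2 to 27.4) and 751, 1357, 372 and 437 CPM of Gfap (control 162 to 209). The summed level of the 6 astrocyte markers was 1559, 2395, 1187 and 1264 CPM in those mice and 1073 to 1107 in control mice. On day 8 it was 1412 and 1771 in mice A and C and 847 and 912 in mice B and D. Of these markers, 2 were called higher on day 13 (Gfap and Vim) and 1 lower (Gja1, log2 fold change -0.93), while Aldh1l1 (0.35), Aqp4 (0.00) and Slc1a3 (-0.21) were not called. Vim and Gfap were higher in mice A and B, as Cav1 was, and the part of astrocytes in the level of Cav1 was not tested.

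**Figure D2:**
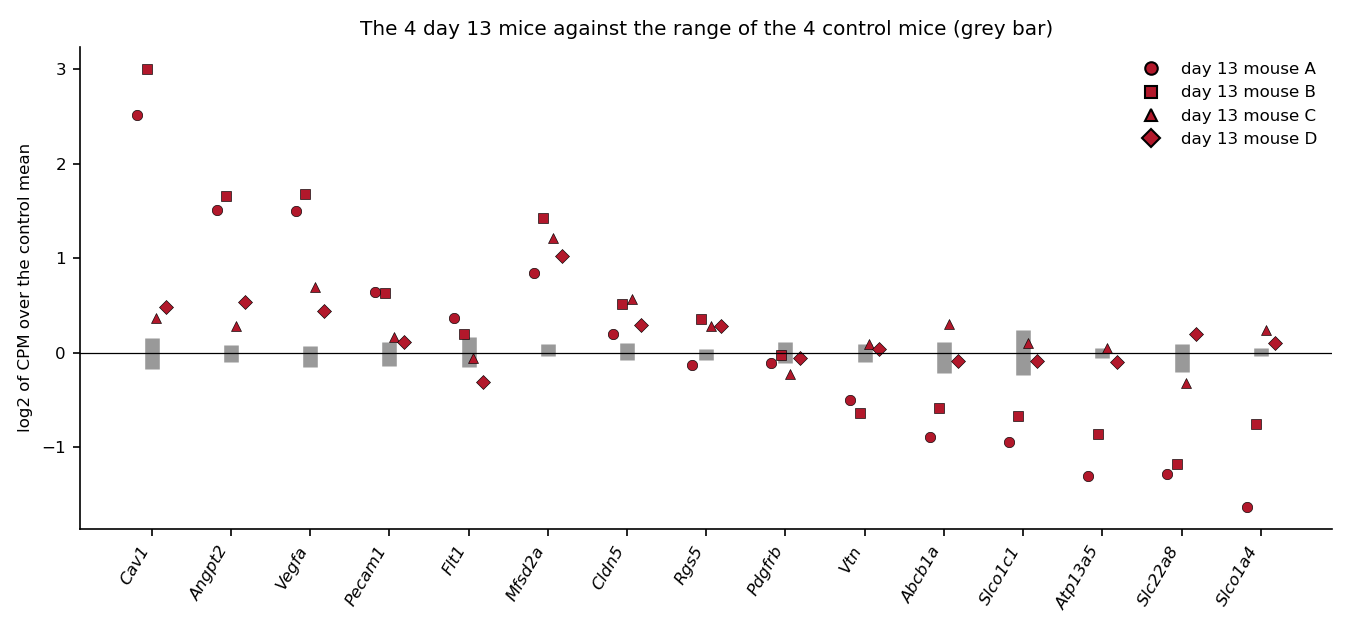
Each day 13 mouse (red symbols, A to D) as the log2 of its CPM over the control mean (y axis), for the 10 genes and 5 others of the vascular lists chosen after their values were seen (x axis); grey bars span the 4 control mice. Mice A and B are high for Cav1, Angpt2 and Vegfa and low for Vtn, Abcb1a, Slco1c1, Atp13a5, Slc22a8 and Slco1a4, while all 4 mice are above the controls for Mfsd2a and Cldn5.

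Cldn5 makes claudin-5, the main sealing protein of the endothelial tight junction. It fell with rapamycin. Control mice had 20.7, 18.3, 19.5 and 18.8 CPM and Tsc1-Cre+-Rap 4 mice 14.9, 12.6, 9.95 and 11.2, so that every treated mouse was below every control mouse. The level was 37.4% lower (log2 fold change -0.68, SE 0.104, edgeR adjusted p = 0.00389), a call that held with any 1 mouse left out (-0.78 to -0.59).

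On day 13 without rapamycin Cldn5 was at 22.1, 27.6, 28.6 and 23.6 CPM, above every control mouse (29.8% higher, log2 fold change 0.38, SE 0.0994, edgeR adjusted p = 0.0216), under the fold minimum. The untreated and treated day 13 mice lay on either side of the control mice, and the treated mice were at 0.480 of the untreated level (log2 fold change -1.06, SE 0.141, edgeR adjusted p = 9.34e-04). On day 8 the mice had 23.7, 18.2, 26.7 and 17.4 CPM, which overlap the control range (log2 fold change 0.14, SE 0.124).

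Pecam1 was at 28.3, 28.2, 20.4 and 19.7 CPM on day 13, with mice A and B well above the control range and D at its upper end, 19.7 (log2 fold change 0.39, SE 0.135, edgeR adjusted p = 0.0566). In Tsc1-Cre+-Rap 4 mice it was at 16.4, 16.1, 14.8 and 14.6 CPM. These are below every control mouse, without a call (log2 fold change -0.23, adjusted p = 0.125), and below every untreated day 13 mouse, with one (log2 fold change -0.63, SE 0.133, adjusted p = 0.00684). Without day 13 mice A and B the latter call was lost (-0.37). Flt1, the decoy receptor for the vascular growth factor VEGF-A, was called nowhere. It was at 105, 93.6, 78.5 and 66.1 CPM on day 13, which holds both the highest and the lowest of the 24 mice, and at 66.9 to 74.3 CPM with rapamycin against 73.7 to 91.5 in control mice (log2 fold change -0.23, SE 0.0624, adjusted p = 0.0667).

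With all 8 mice of a comparison in the fit, Pdgfrb, Rgs5 and Vtn did not pass the call, fold minimum included, in any of the 7 comparisons. Pdgfrb is the receptor through which endothelial PDGF-B recruits pericytes, and Rgs5 is a regulator of G-protein signalling that marks them. Pdgfrb was at 36.9, 33.2, 34.1 and 31.6 CPM in control mice and at 29.0 to 33.5 on day 13 (log2 fold change -0.12, SE 0.0752, edgeR adjusted p = 0.255). With rapamycin it was at 26.0, 25.6, 23.9 and 25.3 CPM, below all other 20 mice. That was 25.8% under control (log2 fold change -0.43, SE 0.0596, edgeR adjusted p = 0.00220) and 19.9% under day 13 (-0.32, adjusted p = 0.0141), each under the fold minimum.

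Rgs5 was at 99.7, 92.4, 98.4 and 98.1 CPM in control mice and at 79.8, 77.5, 87.4 and 83.7 with rapamycin, every one lower (15.4%, log2 fold change -0.24, SE 0.0493, edgeR adjusted p = 0.0180). On day 13 mice B, C and D had 124, 118 and 118 CPM and mouse A 88.7 (log2 fold change 0.19, SE 0.0991, adjusted p = 0.186). Every rapamycin mouse was below these day 13 mice (log2 fold change -0.44, SE 0.103, edgeR adjusted p = 0.0107), under the fold minimum. Without day 13 mouse A that log2 fold change was -0.55, which is a call, and a call was also made without mice A and B. On day 4 the mice ranged from 65.6 to 99.5 CPM (log2 fold change -0.26, adjusted p = 0.161). Vtn with rapamycin, at 31.5 to 38.3 CPM, overlapped the control range (log2 fold change -0.22, SE 0.0733, adjusted p = 0.127).

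For rapamycin against control, 1 of the 10 was called, Cldn5, beside 1.41% of 25006 genes. By adjusted p alone 3 were lower (Cldn5, Pdgfrb and Rgs5) and none higher, beside 3.57% of genes, of which 578 were lower and 314 higher. In all, 9 of the 10 had a negative log2 fold change, Mfsd2a being the exception, with a median of -0.23 over the 10 and 0.01 over all genes. For rapamycin against day 13, 4 of the 10 were called lower (Cldn5, Pecam1, Mfsd2a and Cav1), beside 21.1% of 24274 genes, and 6 by adjusted p alone, beside 30.8%. Cav1, at 8.78, 9.21, 10.4 and 10.6 CPM in the treated mice, was at 0.197 of the day 13 level (log2 fold change -2.34, SE 0.529, edgeR adjusted p = 0.00918). Without day 13 mice A and B that log2 fold change was -0.74, and the call held. The 10 genes were picked by name with earlier results known, so these counts are no result about the genes as a set. The treated and untreated day 13 groups were compared with the same 4 control mice.

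Day 13 against day 8 gave no call among the 10 in edgeR, beside 0% of 24747 genes, of which 3479 had an unadjusted p under 0.05 and DESeq2 called 238. With all 24 mice in the edgeR fit, 1343 genes were called and 2 of the 10, Mfsd2a and Cav1. For single genes, the two-sided exact permutation test of 4 mice against 4 has 70 arrangements, and its smallest p, 0.0286, was reached wherever the mice did not overlap.

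**Figure D3:**
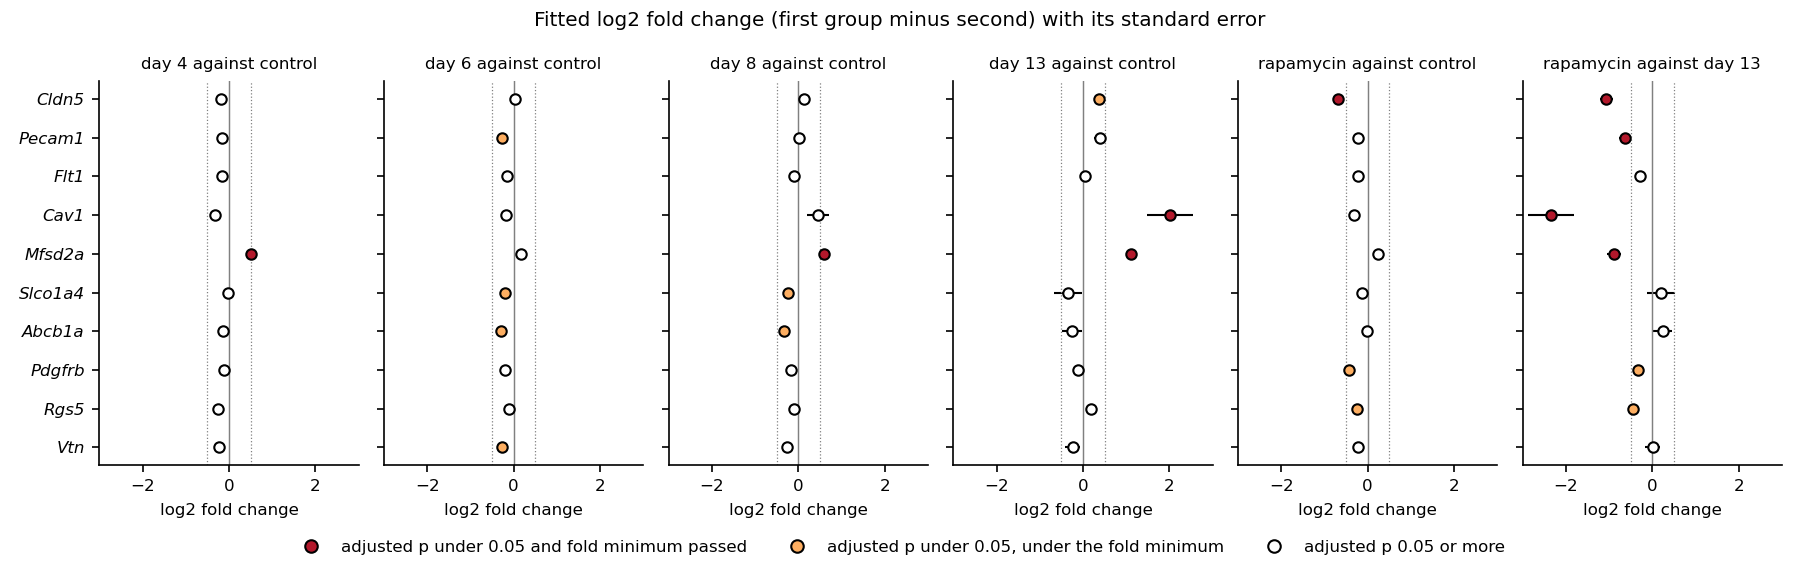
Fitted log2 fold change (x axis, first group minus second) with its standard error for each of the 10 genes (y axis) in 6 comparisons of 4 mice with 4, with dotted lines at the fold minimum of 0.5. Red points are called, orange points have an adjusted p under 0.05 but a smaller change, and white points neither, so that Mfsd2a and Cav1 are red on day 13 (1.12 and 2.01) and Cldn5 is red with rapamycin (-0.68 against control).

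The wider vascular lists place these genes in their pathways, and their counts on day 13 stand beside the 16.5% of all genes called. Of 22 further endothelial identity genes, 3 were called higher on day 13 and none lower, a share under that of all genes: Cd93, a lectin-like receptor of endothelium (log2 fold change 1.31, SE 0.128, edgeR adjusted p = 4.08e-04), Vwf, the clotting factor stored in endothelial granules (0.67), and Emcn, a sialomucin of veins and capillaries (0.55). Cd93 was at 53.2, 51.3, 37.3 and 36.6 CPM in those mice against 16.6 to 18.6 in control mice. It was also the 1 gene of this list called higher on day 8. The median log2 fold change of the list on day 13 was 0.20, against -0.04 over all genes tested, and 14 of the 22 genes had a positive sign. By adjusted p alone, Esam (0.49) was also higher, while Cd34 (-0.47) and Tek (-0.42) were lower, each under the fold minimum.

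Of 15 further transporters and receptors of the barrier, 8 were called higher on day 13 and none lower, with a median of 0.53. The strongest were the amino acid carriers Slc7a5 (log2 fold change 1.70, SE 0.104, edgeR adjusted p = 7.27e-05), Slc7a1 (1.68) and Slc38a5 (1.29), with Slc3a2, the partner chain of Slc7a5, the glucose carrier Slc2a1, the lactate carrier Slc16a1, the transferrin receptor Tfrc and the lipoprotein receptor Lrp8. Neurons and glia also express several of them. Slc7a5, Slc7a1 and Slc38a5 were already called on day 6, the only 3 of the list, and again with Slc3a2 on day 8. Slc7a5 was at 31.0 to 36.8 CPM in control mice, 43.6 to 56.4 on day 6, 63.6 to 99.3 on day 8 and 96.4 to 133 on day 13. With rapamycin it was at 31.2 to 38.7 CPM. The organic anion carriers Slc22a8 and Slco1c1 were not called on day 13 (log2 fold changes -0.54 and -0.36). Mice A and B had 3.97 and 4.29 CPM of Slc22a8 and mice C and D 7.73 and 11.1, against 8.43 to 10.3 in control mice. Chosen after its values were seen, the pericyte gene Atp13a5 had 8.75, 11.9, 22.4 and 20.2 CPM.

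Among 14 angiogenic ligands and receptors, 7 were called higher on day 13 and 1 lower, with a median of 0.56. Vegfa, the chief growth factor of endothelium, was at 125, 141, 71.6 and 59.9 CPM in mice A to D against 39.7 to 46.3 in control mice (log2 fold change 1.15, SE 0.238, edgeR adjusted p = 0.00802), and had been called on day 8. The peptide hormone Adm (2.36) and the apelin receptor Aplnr (2.01) were low in level and higher on day 13. Aplnr, at 2.18 to 3.15 CPM against 0.598 to 0.767, was above the controls in all 4 mice. Angpt2, which destabilizes vessels, Pdgfb, Dll4 and Tgfb1 were also higher. The tip cell gene Esm1 was lower, at a mean of only 0.561 CPM over the 24 mice.

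The other lists reported differed from each other on day 13. No gene was called of 10 for tight junctions (median -0.13) or of 6 for arterial smooth muscle (median -0.10). By adjusted p alone, the tight junction genes Ocln (-0.45) and Pard3 (-0.42) were lower and Cldn12 (0.22) higher, each under the fold minimum. Of 6 caveola and fenestra genes, Cav2 (0.96) and Ehd2 (0.57), both of caveolae, were called higher and Plvap, of fenestrae, lower (-0.68). This was a larger share than that of all genes, in a short list with a median of 0.35. Of 12 pericyte genes, Cd248 was called higher (0.74) and Slc6a20a lower (-0.89), and of 12 genes of the Wnt programme that maintains the barrier, Ctnnb1 higher (0.53) and the ligand Wnt7a lower (-0.71). Fibroblast markers, which mark the meninges and large vessels, summed to 43.7 to 85.4 CPM on day 13 against 23.4 to 53.0 in control mice, with Col3a1 called higher and Lum lower. Their part in the vascular lists was not tested. With these markers as a covariate, both day 13 calls among the 10 genes held and the day 4 call of Mfsd2a was lost.

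With rapamycin, every call against control in the vascular lists was downward. Of all genes 1.41% were called, and these were mostly downward too, 259 lower and 93 higher. Called lower were 2 of 22 endothelial genes, Kdr, the main signalling receptor for VEGF-A, and Eng, a co-receptor for TGF-β family ligands. Kdr was at 12.2, 12.7, 11.3 and 11.9 CPM in the 4 mice, against 21.2 to 33.8 in control mice (log2 fold change -1.14, SE 0.119, edgeR adjusted p = 3.81e-04). Eng was at 5.85 to 7.55 CPM against 9.37 to 12.6 (-0.70). The 22 genes had a median of -0.30.

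Also lower with rapamycin were Slc22a8 (-0.63) and Slco1c1 (-0.55) among 15 transporters, the Wnt ligand Wnt7a (-0.59) and the Frizzled ligand Ndp (-0.94) among 12 Wnt genes, and Unc5b (-0.53) among 14 angiogenic genes. No gene was called of the tight junction, caveola, pericyte or smooth muscle lists. The mean log2 CPM of the endothelial list was 2.76 to 2.94 in rapamycin mice and 3.08 to 3.29 in control mice, so the groups did not overlap. Markers of other cells were lower too, with Aqp4 and Gfap of 6 astrocyte markers and Cx3cr1 and Aif1 of 5 microglia markers called. Their part in the vascular values was not tested.

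Against untreated day 13 mice, where 21.1% of all genes were called, 10 of the 22 endothelial genes were lower with rapamycin and none higher, among them Cd93 (-1.66), Kdr (-1.53) and Emcn (-0.94). Lower as well were 7 of the 15 transporters, 7 of the 14 angiogenic genes (with Esm1 higher) and 3 of the 6 caveola and fenestra genes (with Plvap higher). Of the 12 Wnt genes 3 were lower and 1, Axin2, higher, and of the 12 pericyte genes 1, Cd248, was lower. No gene was called of 10 for tight junctions or of 6 for smooth muscle.

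**Figure D4:**
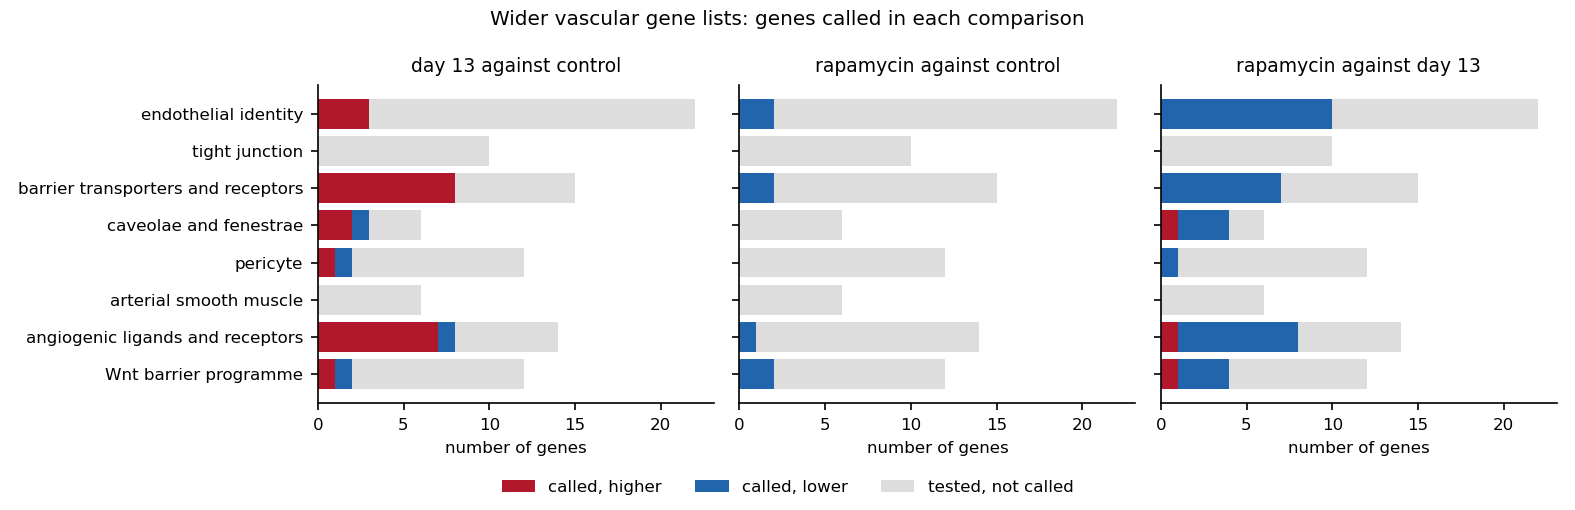
Number of genes (x axis) of 8 wider vascular lists (y axis) that were called higher (red), called lower (blue) or tested and not called (grey) in 3 comparisons of 4 mice with 4. On day 13 the transporter list (8 of 15 higher) and the angiogenic list (7 of 14 higher) hold the most calls, and with rapamycin against day 13 the endothelial list (10 of 22 lower).

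How the 10 genes varied among mice of a group was described by the Pearson r of their log2 CPM after the group mean was taken off, over 24 mice that share the 6 groups. The points are mice of different depth, and the 4 day 13 mice weigh most. Of the 45 pairs, Slco1a4 and Abcb1a were closest (r = 0.89, and 0.43 over the 20 mice without day 13), followed by Pecam1 and Cav1 (0.81 and 0.73). Slco1a4 ran against Flt1 (-0.76 and -0.24) and Cav1 (-0.73 and -0.11). Over the 20 mice without day 13, the strongest r of the 45 pairs was that of Cldn5 and Slco1a4, at -0.81, beside -0.02 over the 24 mice.

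Among 14968 genes at a mean of at least 1 CPM, those most like Cav1 were Pros1, S1pr3 and Tnc, each with r = 0.98, and 0.95, 0.90 and 0.93 without day 13. For Slco1a4 they were Nat8 (0.96), Atp13a5 (0.96) and Ucp3 (0.94), which without day 13 were at 0.47, 0.53 and 0.24. For Abcb1a they were Amot (0.94), Atp13a5 (0.92) and Tnfrsf19 (0.91), at 0.59, 0.50 and 0.56 without day 13. Mfsd2a was closest to Ctbp1 (0.88), Rplp1 (0.88) and Rpl13 (0.87), Pecam1 to Hdac2 (0.88), Tpm4 (0.87) and Irgm1 (0.87), and Flt1 to Ago2 (0.90), Larp1 (0.89) and Zbtb21 (0.89). Cldn5 was closest to Upf1 (0.82), Pnmal1 (0.80) and Mrpl28 (0.79), and Vtn to Adgrf5 (0.86), Il18 (0.84) and Pcca (0.84). Without day 13 the genes named for Flt1 were at 0.70, 0.70 and 0.62 and those for Vtn at 0.67, 0.39 and 0.65. Those for Mfsd2a, Pecam1 and Cldn5 were at 0.80 to 0.90. Rgs5 (Tspan6 and Fbxo8, each 0.79, and Rnf219, 0.77) and Pdgfrb (Adat2, 0.72, and Rsf1os2, 0.71, among others) had the lowest values. Atp13a5 and Tnfrsf19 were the only ones of these in the vascular lists.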

How the data were processed

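Per the labels and the methods, total RNA of mouse hippocampus was depleted of ribosomal RNA and made into stranded libraries. The authors trimmed reads with cutadapt 1.16.5, aligned them to GRCm38 (mm10) with STAR 2.7.2b and deposited raw read counts per gene from featureCounts 1.6.4. How reads shared by similar genes (Abcb1a and Abcb1b, the Slco1a cluster) were counted is not given in the sources used here. Gene names were taken from GENCODE M21, which held 55144 of the 55385 IDs. Groups follow the labels, and letters A to D name different mice. Counts were filtered, scaled by TMM and tested in R 4.3.3 with edgeR 4.0.16, taking the 8 mice of a pair of groups, or all 24 for the F test, with Benjamini-Hochberg adjustment over all genes tested. Values printed are CPM. Totals of 28208561 to 126435936 reads put every member at 253 reads or more. The edgeR step was tested on simulated data.

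The 10 genes and the wider lists were chosen with earlier results of these data known. Named were all members, up to 3 called genes of largest change per list at a mean of 1 CPM or more, and the 3 genes most like each member; further list genes were named after their values were seen. Some list genes are not reported here. Alternatives were DESeq2 1.42.0, its size factors, no filter, no fold minimum, a replicate block, covariates and leaving out each mouse. Whether mice of a group are independent beyond their labels is not stated, so p-values measure the spread between these mice.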

Additional observations from a re-analysis of the deposited data

Results flagged for a closer look

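Of 60 groups of 4 values (10 genes in 6 groups), 2 held a mouse far from the other 3 by Dixon's test, where chance gives about 1 in 20. Cldn5 on day 4 was at 19.1 CPM in mouse B and at 16.1 to 16.4 in the others. Rgs5 on day 13 was at 88.7 CPM in mouse A and at 118 to 124 in the others.

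Tsc1-Cre+ mice taken on day 13 differed with rapamycin, by the edgeR test, in 4 of the 10 genes, beside 21.1% of 24274 genes. The log2 fold change with rapamycin was -1.06 for Cldn5, -0.63 for Pecam1, -0.89 for Mfsd2a and -2.34 for Cav1. Each was lower in 4 of 4 treated mice than in any untreated mouse.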

How the results depend on the processing

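Of 1300 recomputed values of the 10 genes in pairs of groups, 1260 stayed on their side of the threshold, 25 lost a call, 15 gained one and 0 called values changed sign. Of the 10, the number called on day 4 (1) was 0 with all 24 mice fitted together and with fibroblast markers, Xist or the endothelial list as a covariate, and 0 to 1 with 1 mouse left out. With no fold minimum it was 4 on day 6 (from 0), 3 on day 8 (from 1) and 3 for rapamycin against control (from 1). On day 8 it was 0 to 1 with 1 mouse left out. The day 13 count (2) was 1 with Xist as a covariate, without mice A and B, and 1 to 2 with 1 mouse left out. Day 13 against day 8 gave 2 (from 0) with all 24 mice. With the endothelial list as a covariate, which was tried, like the fit without mice A and B, only once results were known, it was 0 on day 8, 1 on day 13, 0 for rapamycin against control and 0 for rapamycin against day 13. In the last 2 the covariate's values did not overlap between the groups, so that list and group cannot be told apart.

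Letters A to D did not pair the mice: correlations of same-letter deviations ran from -0.240 to 0.121. With the replicate block the day 13 count was 1, because Cav1 was lost (edgeR adjusted p = 0.0529), and 3546 in place of 4101 genes were called. No other call was changed by the block.

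Over all genes, calls on day 4 ran from 29 (all 24 mice) to 1054 (no fold minimum) beside 172, on day 6 from 84 to 2519 beside 332, and on day 8 from 586 to 3331 beside 1001. On day 13 they ran from 2011 (endothelial covariate) to 6696 beside 4101, for rapamycin against control from 1 (endothelial covariate) to 892 beside 352, for rapamycin against day 13 from 1 to 7474 beside 5123, and for day 13 against day 8 from 0 to 1343 beside 0. The causes were not tested. Of the 30 genes named as most like a member, 10 were shared with the Spearman measure and 6 with uncentred values. Each of the 10 genes had at least 253 reads in every mouse.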
